A study of Mus musculus with 6 samples.

Results

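Guidance cues are secreted or membrane-bound proteins that steer growing axons, blood vessels and epithelial cells by attracting or repelling the cell surface that carries their receptor. The genes described here are the Slits and their Robo receptors, the netrins with Dcc and the Unc5 receptors, the semaphorins with the neuropilins and plexins, and the ephrins with the Eph receptor tyrosine kinases. They were picked out by gene symbol, and 69 of the 19893 symbols present in every library belonged to these families. Of these 69 genes, 35 encode ligands and 34 encode receptors.

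RNA was sequenced from spheres grown from MMTV-Neu mice on the FvB background, a transgenic line that expresses the Neu (ErbB2) oncogene from the mouse mammary tumour virus promoter, mainly in mammary epithelium. There were 3 libraries of early lesion (EL) spheres, from mice aged 14 to 18 weeks with no palpable tumour, and 3 of primary tumour (PT) spheres, from mice older than 20 weeks that had tumours. All 6 libraries carry the transgene, and all cells were grown for 7 days without adhesion in mammosphere medium. Age, tumour stage and tissue of origin differ together between the groups, so their parts cannot be told apart. The protocol speaks of mammary glands and tumours, whereas a tissue label of the EL samples reads "mammary lung", and the labels give no sort of the cells. The labels do not say whether libraries of 1 group stem from different mice. The p-values therefore refer to the spread among these 6 libraries, which may be technical.

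In the nervous system a Slit binds a Robo receptor and repels the growth cone, and in the mammary gland Slit and Robo proteins are known for holding the luminal and basal layers together. Netrins attract cells through Dcc and repel them through Unc5 receptors. Class 3 semaphorins are secreted and bind neuropilins, which pair with plexins, while most other semaphorins are membrane proteins that bind plexins directly. Ephrins are anchored in the membrane of 1 cell and bind Eph receptors on its neighbour, ephrins A mostly binding EphA and ephrins B mostly EphB.

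Total counts were between 69759793 and 85126630 per library, the lowest from EL replicate 1, whose table breaks off early and lacks 5404 of 33068 transcript rows. No guidance gene was lost with them, though only 64 of the 69 kept all their transcript rows. Expression is given as CPM, where a library's total is the sum over 1 transcript row per symbol, between 43278382 and 51117359, times its TMM factor. The TMM factors were 0.914 to 0.922 for EL and 1.09 for PT. Correlations of log2 CPM across genes were at least 0.995 within EL and 0.997 within PT, and between 0.839 and 0.847 across the groups.

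Markers of several cell types differed with the groups. For comparison, 39.9% of all genes tested were higher in PT and 40.8% lower. Fibroblast markers summed to between 62509.7 and 66885.6 CPM in EL and between 626 and 749 in PT, and 10 of 10 were lower in PT. Endothelial markers summed to between 257 and 277 CPM in EL and between 10.8 and 11.98 in PT, with 10 of 10 lower. Pericyte markers summed to between 1426 and 1643 CPM in EL and between 138 and 147 in PT, with 7 of 7 lower. Luminal epithelial markers summed to between 2478 and 2537 CPM in EL and between 9042 and 9361 in PT, with 10 of 10 higher. The labels call all samples breast cancer cells, and luminal markers were detected in every library. Of the basal epithelial markers, whose sum was 782 to 814 CPM in EL and 1342 to 1415 in PT, 4 were higher and 6 lower. By mean CPM in EL and PT, the 4 were Itga6 (278 and 746), Oxtr (20.3 and 233), Krt17 (23.8 and 165) and Krt14 (149 and 178). The 6 were Krt5 (52.5 and 0.143), Acta2 (235 and 36.2), Trp63 (11.1 and 2.19), Myh11 (7.52 and 0.205), Mylk (21.4 and 11.8) and Cnn1 (1.97 and 0.996). Macrophage markers summed to between 93.1 and 124 CPM in EL and between 219 and 256 in PT, with 8 of 9 higher. Of the 7 Schwann and glial markers tested, with sums of 221 to 234 CPM in EL and 609.8 to 616 in PT, 4 were higher and 3 lower. Neuron markers summed to at most 12.8 CPM in EL and 0.618 in PT, Tubb3 was the single one tested and was lower, and Snap25 had no count in PT. No other listed marker was at 0 in a whole group. The part of these cell types in the differences below was not tested, and in bulk RNA fewer cells of a type and less RNA per cell cannot be told apart.

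Upstream sequence is shown for the 2 genes with the largest rise and the 2 with the largest fall. Each stretch covers 250 bases before to 50 after the RefSeq start on GRCm38.p6, all 4 on the plus strand. They lie at chr9:37401722-37402021 for Robo4, chr14:31217623-31217922 for Sema3g, chr5:17574566-17574865 for Sema3c and chr10:93640799-93641098 for Ntn4. Capitals mark the GC box GGGCGG, or its reverse complement CCGCCC, a motif bound by Sp1-type factors. The first pair fell by most and the second pair rose by most:
Robo4: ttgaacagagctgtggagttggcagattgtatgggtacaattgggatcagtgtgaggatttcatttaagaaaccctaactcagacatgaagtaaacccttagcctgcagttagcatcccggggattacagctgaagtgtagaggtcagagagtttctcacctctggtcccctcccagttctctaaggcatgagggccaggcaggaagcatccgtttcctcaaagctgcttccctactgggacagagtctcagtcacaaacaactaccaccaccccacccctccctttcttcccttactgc
Sema3g: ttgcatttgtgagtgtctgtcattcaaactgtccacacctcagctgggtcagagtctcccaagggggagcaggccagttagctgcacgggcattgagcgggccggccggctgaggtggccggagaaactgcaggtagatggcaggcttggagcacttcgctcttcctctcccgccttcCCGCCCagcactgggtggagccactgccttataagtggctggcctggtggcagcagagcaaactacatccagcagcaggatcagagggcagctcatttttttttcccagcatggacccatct
Sema3c: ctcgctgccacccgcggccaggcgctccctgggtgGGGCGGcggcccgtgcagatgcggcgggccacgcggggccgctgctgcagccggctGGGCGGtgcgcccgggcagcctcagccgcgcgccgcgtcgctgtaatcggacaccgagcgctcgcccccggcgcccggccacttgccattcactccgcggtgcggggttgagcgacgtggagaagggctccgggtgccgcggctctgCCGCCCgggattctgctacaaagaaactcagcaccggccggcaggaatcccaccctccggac
Ntn4: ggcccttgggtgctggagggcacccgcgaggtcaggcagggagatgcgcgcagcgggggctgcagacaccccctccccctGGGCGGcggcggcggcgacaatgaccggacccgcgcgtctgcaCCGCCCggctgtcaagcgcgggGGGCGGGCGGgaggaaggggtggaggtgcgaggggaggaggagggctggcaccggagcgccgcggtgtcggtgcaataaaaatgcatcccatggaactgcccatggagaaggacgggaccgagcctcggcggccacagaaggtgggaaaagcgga
The Robo4 stretch holds 2 CpG dinucleotides and no GC box, and that of Sema3g 8 CpG and 1 GC box. The Sema3c stretch holds 42 CpG and 3 GC boxes, and that of Ntn4 31 CpG and 4 GC boxes, some of which overlap. The GENCODE start of Sema3c lies 535 bases from the RefSeq one. GC content was 50.3% for Robo4, 58.7% for Sema3g, 75.7% for Sema3c and 72.0% for Ntn4, against a median of 52.7% over all 32851 promoters in the table. Neither CACCTG (an E-box) nor CCGGAA (an Ets motif) was found in these 4 windows on either strand. Over all promoters, the GC box was found in 35.7%, CACCTG in 20.2% and CCGGAA in 14.9%.

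Across the 59 guidance genes with a promoter in that table, CpG numbers of those that rose and those that fell were close. The GC box was found in 13 of the 16 genes that rose and in 20 of the 34 that fell. Among the latter it was found in 6 of the 16 that fell over 16-fold and in 14 of the 18 that fell by less. The median number of CpG was 19 in the genes that rose and 20.5 in all those that fell, against 7 over all promoters. These matches describe letters in a window and were not tested against expression.

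Most guidance genes were lower in PT spheres, and many of them by a large factor. Of the 69, 63 had enough counts to be tested and 58 passed an adjusted p of 0.05 in edgeR's quasi-likelihood test with Benjamini-Hochberg adjustment, which is 92.1% of those tested, where the background over all 13844 genes tested was 80.7%. There were 18 genes higher in PT, or 28.6% against 39.9% of all genes, and 40 lower, or 63.5% against 40.8%. A rise of over 2-fold was seen for 6 genes (9.52%, background 9.43%) and a fall of over 2-fold for 33 (52.4%, background 19.4%), so 39 changed by over 2-fold in all (61.9%, background 28.8%). For 18 genes the fall exceeded 16-fold (28.6%, background 6.98%), and no guidance gene rose by as much. EL and PT values did not overlap for 57 of the 63 genes (90.5%, background 82.7%). Statements below that the groups do not overlap stand against that background. The median log2 fold change, PT minus EL, was -1.59 over the 63 genes and 0.00 over all genes tested. When library totals alone set the scale, 23 guidance genes were higher and 37 lower, where 57.2% of all genes were higher and 29.7% lower, because that scaling raised the median of all genes by 0.25.

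**Figure D1:**
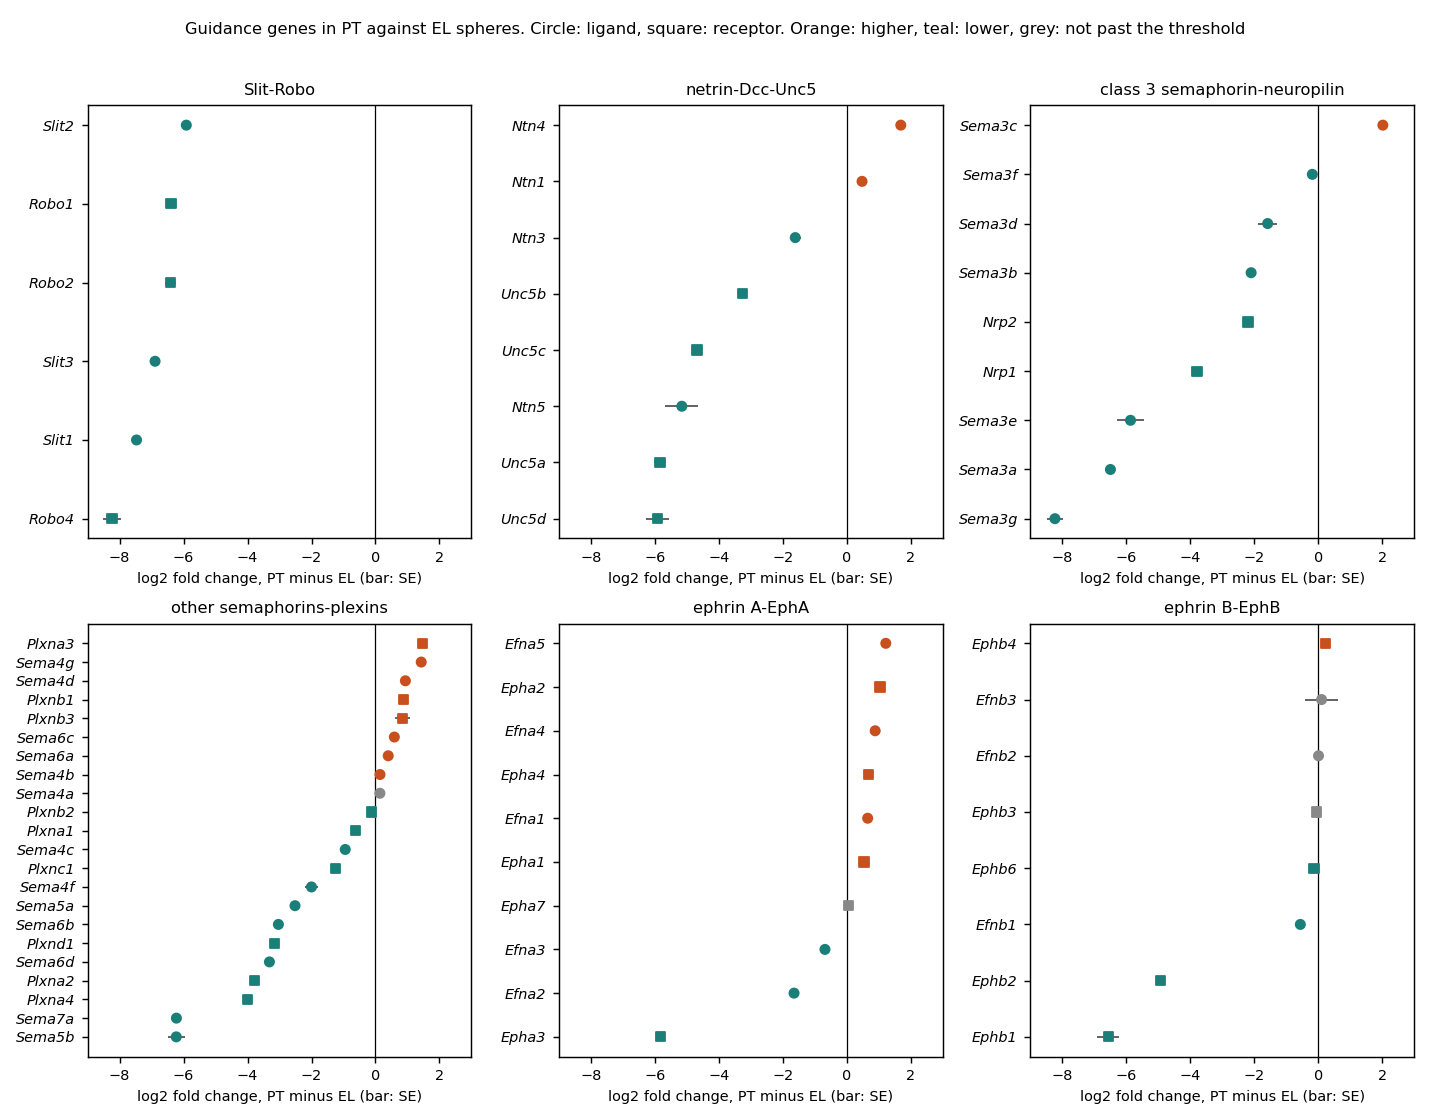
Log2 fold change, PT minus EL, of the 63 guidance genes tested, in 6 ligand and receptor systems. Circles are ligands and squares receptors, bars are standard errors, orange is higher in PT, teal lower and grey not past the threshold. All 6 Slit and Robo genes lie below -5, whereas the ephrin A and EphA genes lie mostly to the right of 0.

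The systems differed in direction. Slit and Robo genes had a median log2 fold change of -6.65, with 0 of 6 higher and 6 of 6 lower. The netrin, Dcc and Unc5 genes had a median of -3.98, with 2 higher and 6 lower of 8. Class 3 semaphorins and neuropilins had a median of -2.20, with 1 higher and 8 lower of 9. For the other semaphorins and the plexins the median was -0.79, with 8 higher and 13 lower of 22. Ephrin A and EphA genes had a median of 0.59, with 6 higher and 3 lower of 10. Ephrin B and EphB genes had a median of -0.10, with 1 higher and 4 lower of 8. Among all genes tested, 39.9% were higher and 40.8% lower. These counts describe the families and were not compared with each other or with that background by a test.

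Every Slit, and every Robo receptor tested, was between 60.3-fold and 302-fold lower in PT spheres. The fall covered the 3 secreted ligands, Slit1, Slit2 and Slit3, and the receptors Robo1, Robo2 and Robo4, of which Robo4 is known from endothelial cells. Slit3 stood at 385, 375 and 387 CPM in EL replicates 1 to 3 and 3.28, 3.07 and 3.32 in PT replicates 1 to 3 (log2 fold change -6.89, SE 0.04, adjusted p = 3.57e-17). Slit2 stood at 224, 191 and 204 CPM in the EL libraries and 3.59, 2.71 and 3.93 in the PT libraries (log2 fold change -5.91, SE 0.09, adjusted p = 4.88e-15). Slit1 was the lowest of the 3 ligands, at 37.0, 48.6 and 41.8 CPM in the EL libraries and 0.175, 0.206 and 0.323 in the PT libraries (log2 fold change -7.47, SE 0.17, adjusted p = 1.68e-13). For each Slit the 3 EL libraries lay close together and far above all 3 PT libraries.

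Robo1, the receptor known for Slit signalling in the mammary gland, was read at 74.8, 65.7 and 65.9 CPM in the EL libraries and 0.663, 0.917 and 0.862 in the PT libraries (log2 fold change -6.39, SE 0.10, adjusted p = 3.48e-15). Robo2, a close relative, was read at 13.4, 12.8 and 14.2 CPM in the EL libraries and 0.175, 0.0749 and 0.216 in the PT libraries (log2 fold change -6.41, SE 0.17, adjusted p = 1.16e-12). Robo4 was read at 9.21, 8.10 and 7.67 CPM in the EL libraries and 0, 0.0374 and 0.0359 in the PT libraries (log2 fold change -8.24, SE 0.27, adjusted p = 8e-12), from 1005 counts in EL and 4 in PT. No PT library reached 1 CPM for any Robo receptor. Robo3, which lies 2.02 kb from Robo4 on chromosome 9, was hardly detected and was not tested, with counts of 3, 0 and 4 in EL and 2, 8 and 4 in PT. Per kilobase of transcript, the unit in which different genes can be compared, Slit3 was at 73.2 CPM per kb in EL and 0.617 in PT, Slit2 at 26.5 CPM per kb in EL and 0.438 in PT and Slit1 at 8.41 CPM per kb in EL and 0.0466 in PT. The Slits together came to 108 ± 1.96 CPM per kb in EL and 1.10 ± 0.115 in PT (mean ± SD, n = 3 each). The Robo receptors together came to 13.3 ± 0.922 CPM per kb in EL and 0.151 ± 0.0307 in PT. Beside these values, the medians of the fibroblast and endothelial marker lists were -6.21 and -6.58, and their part in the Slit and Robo values was not tested.

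**Figure D2:**
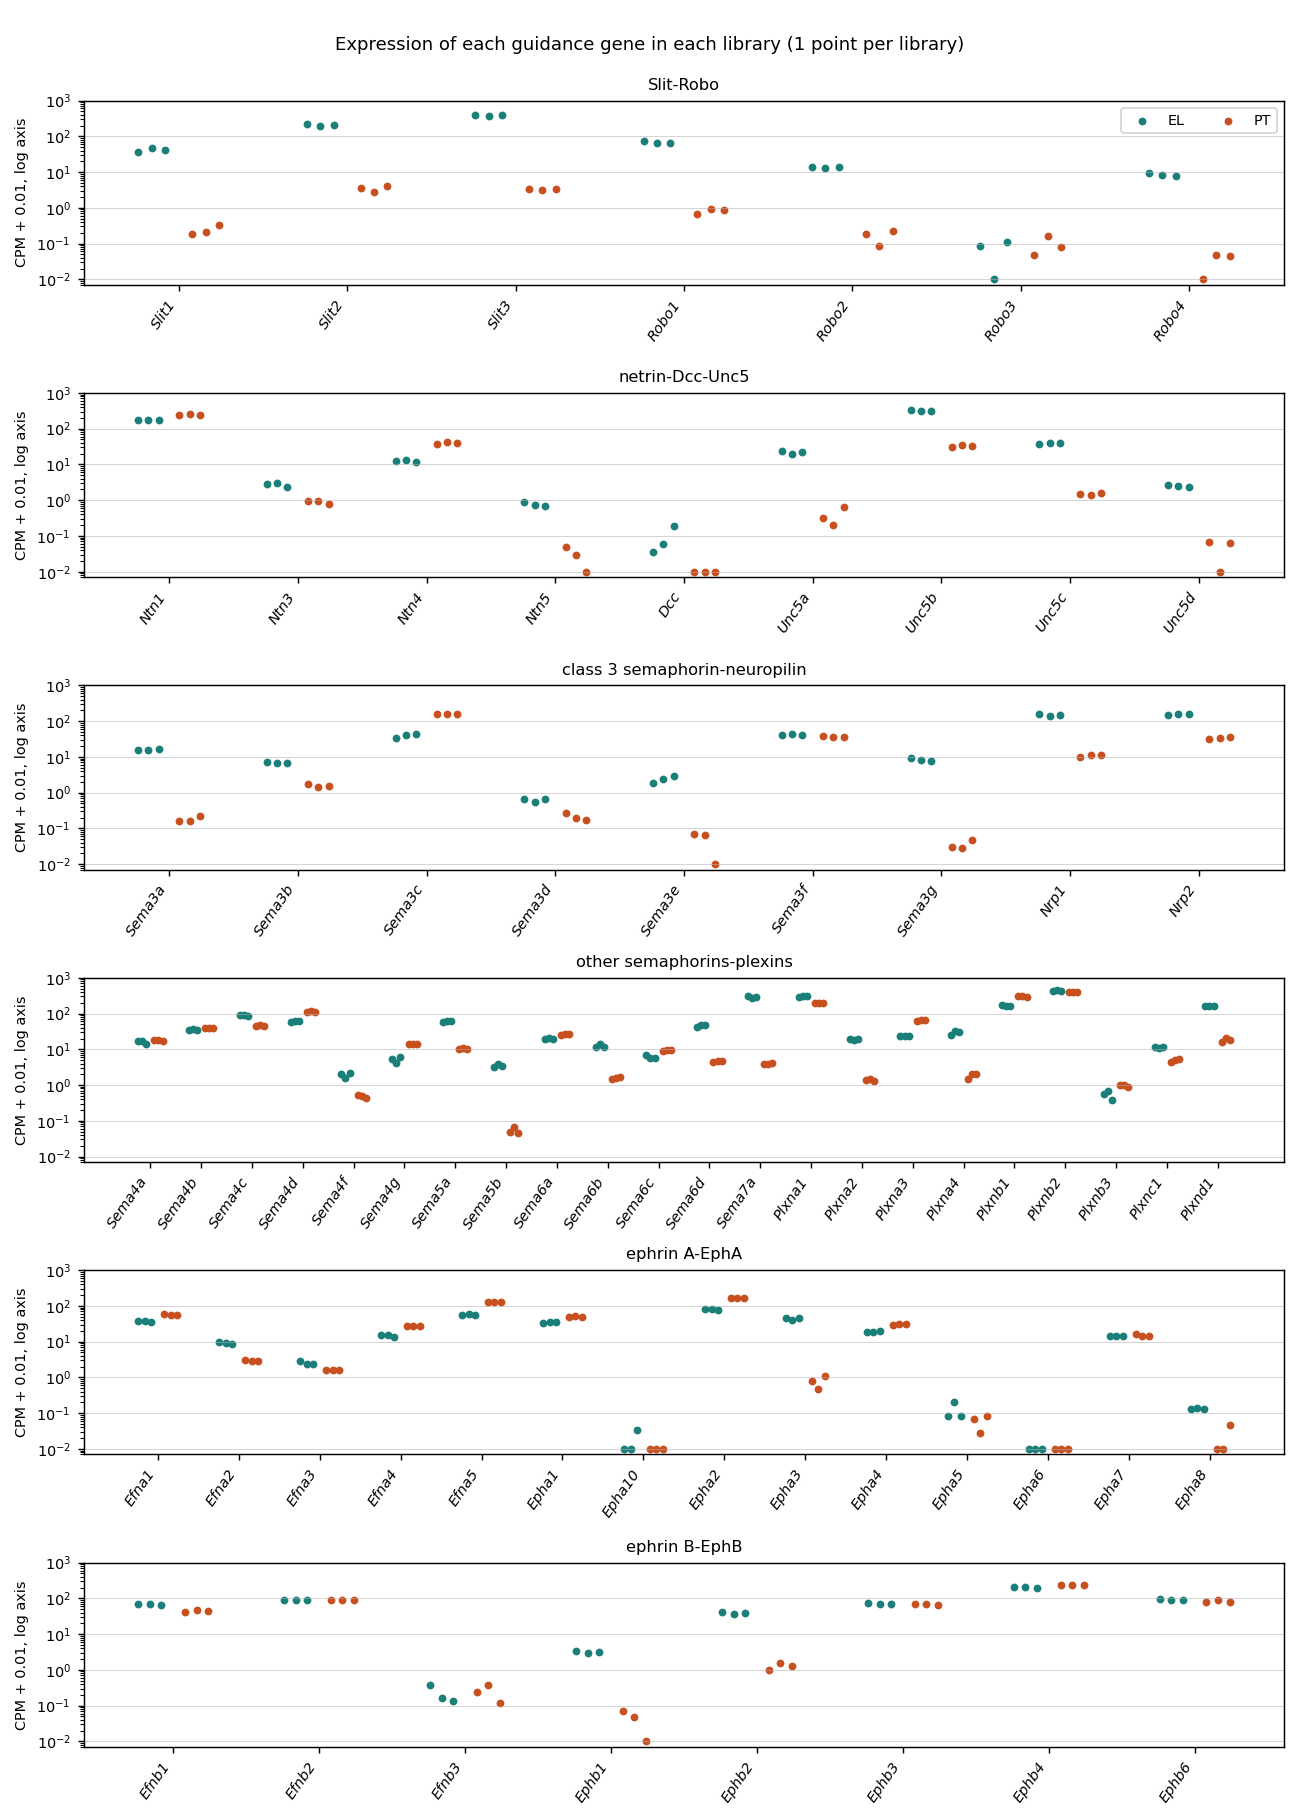
CPM of each guidance gene in each of the 6 libraries, 1 point per library, on a log axis with 0.01 added so that a count of 0 can be drawn. For the Slits the 3 EL points lie about 2 gridlines above the 3 PT points, whereas Ephb3, Ephb6 and Efnb2 have EL and PT points at nearly the same height.

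Netrins split, 2 being higher and 2 lower in PT. The 2 most abundant netrins were higher in PT, while all 4 Unc5 receptors, which transmit the repellent signal of netrins, were lower by 9.64-fold or more. Ntn1, netrin-1, stood at 172, 177 and 174 CPM in EL replicates 1 to 3 and 235, 252 and 238 in PT replicates 1 to 3 (log2 fold change 0.47, SE 0.03, adjusted p = 2.73e-08). Ntn4, a netrin found in basement membranes, stood at 12.7, 13.5 and 11.4 CPM in the EL libraries and 38.3, 43.1 and 39.6 in the PT libraries (log2 fold change 1.68, SE 0.07, adjusted p = 4.82e-11). All PT libraries exceeded all EL libraries for both genes, by 1.39-fold for Ntn1 and 3.21-fold for Ntn4. Ntn3 was lower in PT, at 2.78, 3.02 and 2.37 CPM in the EL libraries and 0.955, 0.917 and 0.790 in the PT libraries (log2 fold change -1.62, SE 0.17, adjusted p = 1.17e-06), and its exons overlap those of Tbc1d24. Ntn5, which overlaps Sec1, was covered by 92 counts summed over EL against 3 over PT, a ratio of 40.8 with an exact 95% interval of 13.5 to 201 that covers counting error only. The netrins together came to 34.9 ± 0.628 CPM per kb in EL and 53.4 ± 2.27 in PT, and the share of Ntn1 in that sum was 87.2% in EL and 78.9% in PT.

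Unc5b, the Unc5 receptor known from blood vessels, was by far the most abundant of the 4 in both groups when compared per kilobase, at 54.4 CPM per kb in EL and 5.65 in PT. It stood at 334, 313 and 312 CPM in the EL libraries and 31.1, 35.2 and 33.1 in the PT libraries (log2 fold change -3.27, SE 0.05, adjusted p = 2.55e-15). Unc5c was read at 36.8, 39.8 and 39.3 CPM in the EL libraries and 1.48, 1.40 and 1.599 in the PT libraries (log2 fold change -4.69, SE 0.07, adjusted p = 5.3e-15). In both genes each EL library was far above each PT library. Unc5a, whose exons overlap Hk3, was read at 24.4, 19.5 and 22.2 CPM in the EL libraries and 0.312, 0.187 and 0.629 in the PT libraries (log2 fold change -5.85, SE 0.19, adjusted p = 8.94e-12), and without PT replicate 3 its log2 fold change was -6.45. Unc5d fell from 2.60, 2.44 and 2.27 CPM in the EL libraries to 0.0585, 0 and 0.0539 in the PT libraries (log2 fold change -5.93, SE 0.36, adjusted p = 4.5e-09). EL and PT libraries did not overlap for any of the 4 receptors, as they did not for 82.7% of all genes tested. The Unc5 receptors together came to 70.2 ± 2.20 CPM per kb in EL and 6.13 ± 0.332 in PT. Dcc, the receptor for the attractive response, was not tested and was covered by 10 counts summed over EL (1, 2 and 7) against 0 over PT. With PT set to a floor of 3 counts over the group, EL was 4.43-fold higher, a ratio that takes the few EL counts as exact. Neo1, neogenin, which also binds netrins, was read at 167 ± 2.40 CPM in EL and 163 ± 4.32 in PT and did not pass the threshold (log2 fold change -0.04, adjusted p = 0.279).

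Among class 3 semaphorins, Sema3c went the other way from its relatives. It was 4.04-fold higher in PT spheres, the largest rise of any guidance gene tested, while the other 6 class 3 semaphorins and both neuropilins were lower. Sema3c stood at 34.7, 40.0 and 44.4 CPM in EL replicates 1 to 3 and 158, 162 and 161 in PT replicates 1 to 3 (log2 fold change 2.01, SE 0.06, adjusted p = 5.54e-12). The lowest PT library exceeded the highest EL library more than 3-fold, and Sema3c was the single guidance gene whose log2 fold change exceeded the luminal marker median of 1.80. Sema3a, the best known repellent of the class, stood at 15.9, 15.7 and 16.5 CPM in the EL libraries and 0.156, 0.150 and 0.216 in the PT libraries (log2 fold change -6.50, SE 0.13, adjusted p = 7.2e-14). Sema3g, a semaphorin known from endothelial cells, was read at 9.28, 8.08 and 7.60 CPM in the EL libraries and 0.0195, 0.0187 and 0.0359 in the PT libraries (log2 fold change -8.24, SE 0.25, adjusted p = 2.95e-12), from 1004 counts in EL and 4 in PT. Sema3e, a ligand of Plxnd1 that does not need a neuropilin, was read at 1.79, 2.42 and 2.84 CPM in the EL libraries and 0.0585, 0.0562 and 0 in the PT libraries (log2 fold change -5.87, SE 0.42, adjusted p = 2.52e-08), and its log2 fold change without PT replicate 3 was -5.29. For these 3 semaphorins every PT library lay below every EL library, where the groups did not overlap for 82.7% of all genes tested.

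Sema3b and Sema3f are both known as candidate tumour suppressors and lie 72.3 kb apart on chromosome 9. Sema3b stood at 7.02, 6.72 and 6.63 CPM in the EL libraries and 1.72, 1.46 and 1.56 in the PT libraries (log2 fold change -2.10, SE 0.11, adjusted p = 1.22e-09). Sema3f differed far less, at 42.2, 42.8 and 40.8 CPM in the EL libraries and 38.8, 36.5 and 35.0 in the PT libraries (log2 fold change -0.19, SE 0.05, adjusted p = 0.00173), and with library totals as the scaling its log2 fold change turned to 0.06 and its call was lost. Sema3d was close to the limit of detection, its counts summing to 73 over EL and 32 over PT (log2 fold change -1.59, SE 0.30, adjusted p = 0.000289). The class 3 semaphorins summed to 26.6 ± 0.602 CPM per kb in EL and 40.6 ± 0.394 in PT. Within that sum Sema3c made up 27.2% in EL and 72.0% in PT, and Sema3f 46.6% in EL and 26.7% in PT. The leading class 3 semaphorin per kilobase was thus Sema3f in EL and Sema3c in PT.

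The neuropilins are the binding receptors of class 3 semaphorins and also bind vascular endothelial growth factor. Nrp1 stood at 159, 136 and 149 CPM in EL replicates 1 to 3 and 9.69, 10.95 and 11.3 in PT replicates 1 to 3 (log2 fold change -3.80, SE 0.07, adjusted p = 1.57e-14). Nrp2 stood at 150.3, 163 and 161 CPM in the EL libraries and 32.0, 34.2 and 36.9 in the PT libraries (log2 fold change -2.20, SE 0.05, adjusted p = 2.15e-13). Both fell, Nrp1 by 13.9-fold and Nrp2 by 4.60-fold, with no overlap between the groups (background 82.7%). Per kilobase, the share of Nrp1 in the sum of both was 62.3% in EL and 35.4% in PT. Nrp2 has 6 transcript rows in the files, 4 of them with nearly the same counts. The 2 rows with fewer reads were lower by a similar factor, with a log2 ratio of means of -2.03 where the other rows gave -2.20.

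**Figure D3:**
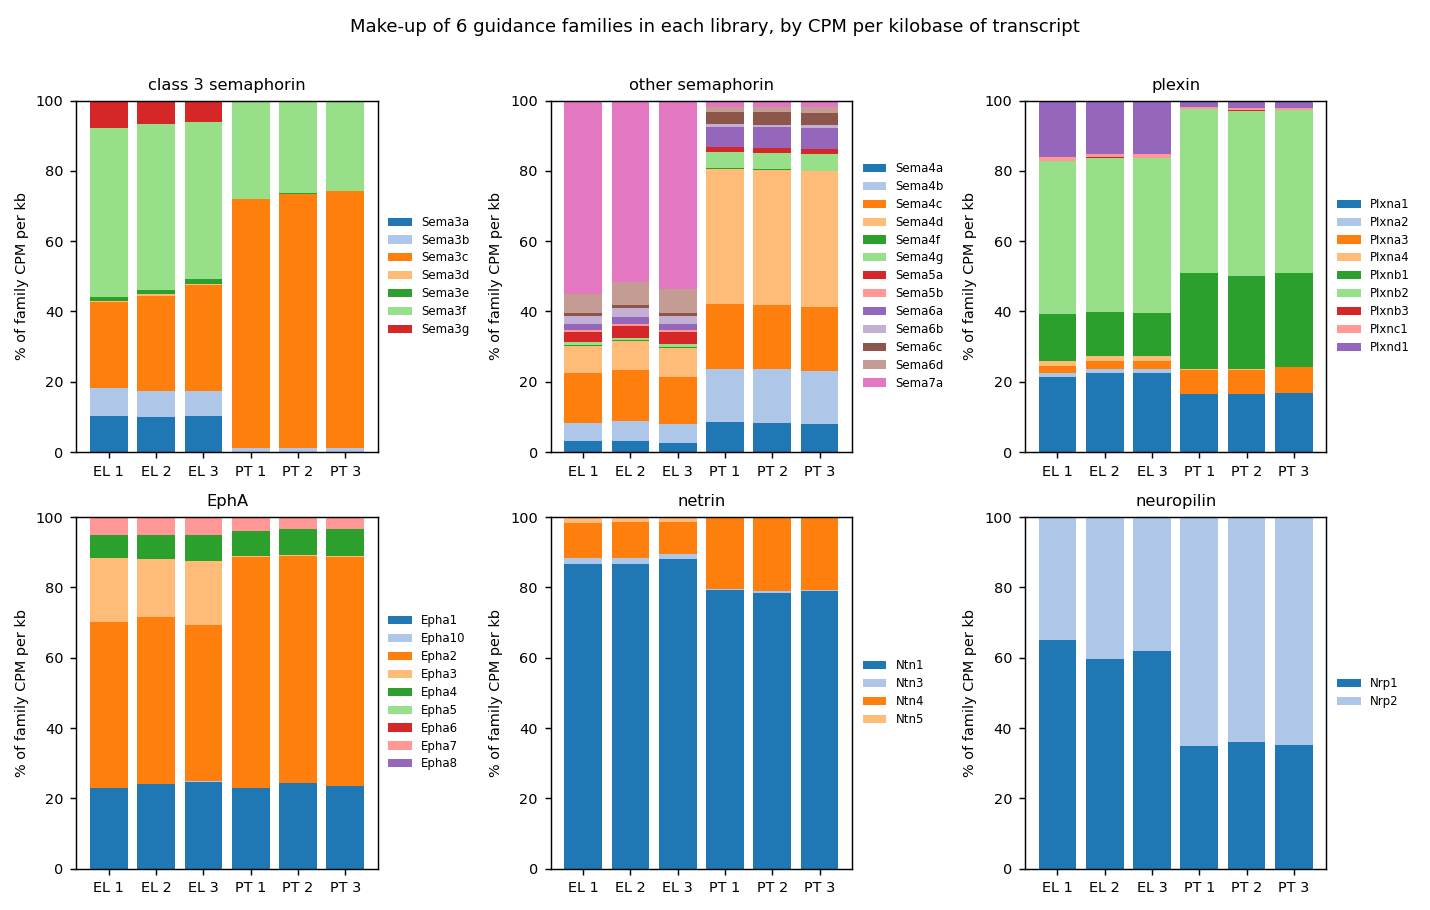
Share of each gene in the summed CPM per kb of its family, in percent, for 6 families in each library. In the class 3 semaphorins Sema3c grows from 27.2% in EL to 72.0% in PT, and in the other semaphorins Sema7a shrinks from 53.3% to 1.80%.

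The semaphorins of classes 4 to 7 and the plexins split in both directions. Sema7a, a lipid-anchored semaphorin that signals through integrins and Plxnc1, was 74.7-fold lower in PT, while Sema4d and its receptor Plxnb1 were both higher. Plxnd1 was 8.91-fold lower in PT. Sema7a stood at 311, 278 and 291 CPM in EL replicates 1 to 3 and 3.90, 3.88 and 4.01 in PT replicates 1 to 3 (log2 fold change -6.22, SE 0.06, adjusted p = 1.2e-16). Per kilobase it was the leading guidance gene of the EL spheres, at 89.0 CPM per kb, and it was at 1.19 in PT. Its share of the summed CPM per kb of the class 4 to 7 semaphorins was 53.3% in EL and 1.80% in PT. That sum was 167 ± 4.38 CPM per kb in EL and 66.3 ± 1.21 in PT.

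Sema4d, a membrane semaphorin that can be shed, stood at 58.3, 59.9 and 60.4 CPM in EL replicates 1 to 3 and 112, 116 and 114 in PT replicates 1 to 3 (log2 fold change 0.93, SE 0.03, adjusted p = 1.57e-11). Sema4c, a ligand of Plxnb2, stood at 92.3, 89.9 and 83.1 CPM in the EL libraries and 45.3, 46.8 and 45.7 in the PT libraries (log2 fold change -0.95, SE 0.04, adjusted p = 1.92e-10). Sema4b differed little but without overlap, at 35.6, 36.6 and 35.3 CPM in the EL libraries and 38.8, 40.6 and 39.1 in the PT libraries (log2 fold change 0.14, SE 0.04, adjusted p = 0.00519). Of the summed CPM per kb of the class 4 to 7 semaphorins, Sema4d made up 7.98% in EL and 38.4% in PT, which made it the leading gene in PT. Sema5a, which carries thrombospondin repeats, was read at 57.1, 62.5 and 63.0 CPM in the EL libraries and 10.4, 11.1 and 10.5 in the PT libraries (log2 fold change -2.52, SE 0.05, adjusted p = 9.65e-14). Sema6d was read at 41.7, 46.9 and 48.9 CPM in the EL libraries and 4.31, 4.68 and 4.80 in the PT libraries (log2 fold change -3.32, SE 0.07, adjusted p = 1.6e-13). Sema6a, which binds Plxna2 and Plxna4, was read at 19.9, 20.9 and 19.7 CPM in the EL libraries and 25.4, 27.3 and 27.0 in the PT libraries (log2 fold change 0.40, SE 0.05, adjusted p = 7.83e-06). Among these 3 the first and second fell and Sema6a rose by 1.32-fold. The remaining semaphorins are named after their values were seen. Sema4g (1.43) and Sema6c (0.59) were higher in PT by the log2 fold changes given, and Sema4f (-2.001), Sema5b (-6.23) and Sema6b (-3.03) were lower. Sema4a was read at 17.3, 16.9 and 14.2 CPM in the EL libraries and 18.1, 18.1 and 17.0 in the PT libraries and did not pass the threshold (log2 fold change 0.14, SE 0.07, adjusted p = 0.0944), though it did with upper-quartile factors or library totals.

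Plxnb2, a receptor of class 4 semaphorins, was the most abundant plexin per kilobase in both groups, at 66.5 CPM per kb in EL and 61.3 in PT. It stood at 423, 443 and 429 CPM in the EL libraries and 399.8, 404 and 391 in the PT libraries (log2 fold change -0.12, SE 0.03, adjusted p = 0.00347). Its call was lost with upper-quartile factors (-0.06, adjusted p = 0.0779), and its log2 fold change turned to 0.13 with library totals as the scaling. Plxnb1, the receptor of Sema4d, stood at 173, 167 and 158 CPM in the EL libraries and 311, 305 and 299 in the PT libraries (log2 fold change 0.88, SE 0.04, adjusted p = 1.12e-10). All PT libraries exceeded all EL libraries for Plxnb1, by 1.84-fold. Plxna1, a partner of the neuropilins, stood at 287, 318 and 304 CPM in the EL libraries and 195, 196 and 197 in the PT libraries (log2 fold change -0.63, SE 0.04, adjusted p = 3.33e-09). Plxna3, a neuropilin partner too, rose from 22.8, 23.0 and 22.9 CPM in the EL libraries to 63.2, 64.0 and 64.7 in the PT libraries (log2 fold change 1.48, SE 0.04, adjusted p = 4.77e-13). Plxnd1, known as the Sema3e receptor of blood vessels, fell from 167, 163 and 158 CPM to 16.4, 20.5 and 17.9 (log2 fold change -3.15, SE 0.06, adjusted p = 3.8e-14). The A class thus held members of both directions, since Plxna2 (-3.79) and Plxna4 (-3.99), named after their values were seen, fell. Plxnc1, the plexin that binds Sema7a, fell as well, from 11.9, 11.1 and 11.8 CPM to 4.41, 4.87 and 5.25 (log2 fold change -1.26, SE 0.08, adjusted p = 1.46e-08). Plxnb3 was barely expressed, its counts summing to 64 over EL and 153 over PT (log2 fold change 0.84, SE 0.24, adjusted p = 0.00572).

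The plexins together came to 152 ± 3.15 CPM per kb in EL and 131 ± 1.43 in PT. The share of Plxnb1 was 12.6% in EL and 26.9% in PT, that of Plxna3 2.17% in EL and 7.02% in PT and that of Plxnd1 15.5% in EL and 2.02% in PT. Plxnb2 held 43.8% in EL and 46.7% in PT.

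Ephrin A ligands and EphA receptors were mostly higher in PT, by modest factors, with Epha3 as the large exception. Of the 10 genes tested 6 rose, by 1.44-fold to 2.32-fold, and Epha3 fell by 56.5-fold. The ligands Efna1, Efna4 and Efna5 rose and Efna2 and Efna3 fell. Efna5 stood at 54.3, 58.6 and 56.2 CPM in EL replicates 1 to 3 and 131, 129 and 133 in PT replicates 1 to 3 (log2 fold change 1.21, SE 0.04, adjusted p = 2.5e-12). Efna1, the usual partner of Epha2 in epithelia, stood at 37.6, 36.7 and 36.3 CPM in the EL libraries and 60.9, 56.0 and 56.5 in the PT libraries (log2 fold change 0.65, SE 0.04, adjusted p = 1.05e-08). Efna4 stood at 15.6, 15.5 and 13.7 CPM in the EL libraries and 27.2, 27.1 and 28.1 in the PT libraries (log2 fold change 0.88, SE 0.06, adjusted p = 9.84e-09). For the 3 ligands each PT library was above each EL library (background without overlap 82.7%). Efna2 was lower, at 10.04, 9.21 and 8.49 CPM in the EL libraries and 3.10, 2.83 and 2.89 in the PT libraries (log2 fold change -1.65, SE 0.10, adjusted p = 4.58e-09). Efna3 was lower too, with 2.82, 2.39 and 2.44 CPM in the EL libraries and 1.64, 1.55 and 1.56 in the PT libraries (log2 fold change -0.69, SE 0.14, adjusted p = 0.00057). Efna1, Efna3 and Efna4 are neighbours on chromosome 3, with gaps of 32.9 and 10.5 kb. Efna3, in the middle, moved against Efna1 and Efna4. Exons of Efna3 overlap those of Gm15998, and exons of Efna4 those of 4731419I09Rik.

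Epha2, an Eph receptor abundant in many carcinomas, stood at 82.6, 82.0 and 75.6 CPM in EL replicates 1 to 3 and 165, 165 and 162 in PT replicates 1 to 3 (log2 fold change 1.04, SE 0.04, adjusted p = 1.97e-11). Per kilobase it was the leading EphA receptor in both groups, its share of the summed EphA level being 46.3% in EL and 65.1% in PT. Epha1, the founding member of the family, stood at 33.6, 34.9 and 35.3 CPM in the EL libraries and 48.6, 52.1 and 49.3 in the PT libraries (log2 fold change 0.53, SE 0.04, adjusted p = 7.37e-08), and its exons overlap those of Zyx. Epha4, which binds ephrins of both classes, stood at 18.4, 19.2 and 20.3 CPM in the EL libraries and 29.7, 31.3 and 30.9 in the PT libraries (log2 fold change 0.67, SE 0.05, adjusted p = 4.69e-08). Groups did not overlap for any of these 3 receptors, as they did not for 82.7% of all genes tested. Epha3, a receptor known from mesenchymal and stromal cells, fell from 46.1, 41.6 and 44.9 CPM in the EL libraries to 0.760, 0.468 and 1.10 in the PT libraries (log2 fold change -5.82, SE 0.13, adjusted p = 1.53e-13). Its share of the summed EphA level was 17.7% in EL and 0.213% in PT. Epha7 was read at 14.8, 14.3 and 14.7 CPM in the EL libraries and 16.4, 14.1 and 14.5 in the PT libraries and did not pass the threshold (log2 fold change 0.04, SE 0.07, adjusted p = 0.601).

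The remaining EphA receptors had too few counts for the main test. Epha8 was covered by 15 counts summed over EL against 2 over PT, a ratio of 9.97 with an exact 95% interval of 2.32 to 89.9 for counting error only. Epha5 had counts of 3, 8 and 3 in EL and 3, 1 and 4 in PT. Epha10 was covered by 1 count in all, from an EL library, and Epha6 had 0 in all 6 libraries. EphA receptors together came to 44.1 ± 0.610 CPM per kb in EL and 64.5 ± 0.722 in PT, and ephrins A to 53.6 ± 1.39 CPM per kb in EL and 90.7 ± 2.04 in PT.

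Apart from Ephb1 and Ephb2, ephrin B ligands and EphB receptors differed by 1.48-fold or less, the largest being a fall of Efnb1. Efnb2 and Ephb4, the ligand and receptor that mark arteries and veins, were both abundant in both groups. Efnb2 was read at 87.7, 91.1 and 92.7 CPM in the EL libraries and 89.3, 89.9 and 92.8 in the PT libraries, and the groups overlapped (log2 fold change 0.00, SE 0.03, adjusted p = 0.945). Efnb1 was lower in PT, at 67.8, 67.4 and 64.5 CPM in the EL libraries and 42.7, 47.6 and 44.5 in the PT libraries (log2 fold change -0.57, SE 0.04, adjusted p = 6.53e-08). Efnb3, whose counts summed to 26 over EL and 37 over PT, did not pass the threshold (log2 fold change 0.10, SE 0.52, adjusted p = 0.865). Leaving out EL replicate 1 moved its log2 fold change to 0.74. Ephb4 stood at 209, 207 and 197 CPM in EL replicates 1 to 3 and 241, 236 and 239 in PT replicates 1 to 3 (log2 fold change 0.22, SE 0.03, adjusted p = 2.23e-05), a rise of 1.17-fold without overlap. Its exons overlap those of Zan. Per kilobase Ephb4 was the second guidance gene of the PT spheres after Plxnb2, with 47.5 CPM per kb in EL and 55.5 in PT.

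Ephb2 fell from 42.8, 37.2 and 38.5 CPM in the EL libraries to 0.994, 1.55 and 1.28 in the PT libraries (log2 fold change -4.95, SE 0.11, adjusted p = 1.03e-13). Ephb1 fell from 3.44, 2.97 and 3.21 CPM to 0.0585, 0.0374 and 0 (log2 fold change -6.57, SE 0.35, adjusted p = 9.75e-10), and its log2 fold change without PT replicate 1 was -7.25. All EL libraries lay far above all PT libraries for both receptors. Ephb6, a receptor without kinase activity, was read at 94.1, 91.5 and 89.8 CPM in the EL libraries and 78.4, 91.3 and 80.6 in the PT libraries (log2 fold change -0.14, SE 0.05, adjusted p = 0.0236), and PT replicate 2 lay within the EL range. Its call was lost without PT replicate 1 (log2 fold change -0.09, adjusted p = 0.130) and without PT replicate 3 (log2 fold change -0.11, adjusted p = 0.104), and with upper-quartile factors (-0.08, adjusted p = 0.159), and its sign turned with library totals as the scaling (0.11). Ephb3 was read at 76.1, 67.7 and 68.0 CPM in the EL libraries and 68.5, 67.8 and 66.6 in the PT libraries and did not pass the threshold (log2 fold change -0.06, SE 0.04, adjusted p = 0.212), and it turned to 0.18 with library totals. EphB receptors together came to 97.7 ± 3.45 CPM per kb in EL and 94.1 ± 1.44 in PT, and ephrins B to 39.4 ± 0.323 CPM per kb in EL and 32.8 ± 0.871 in PT.

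Seen per kilobase over all families, the leading genes changed between the groups. In EL they were Sema7a (89.0 CPM per kb), Slit3 (73.2), Plxnb2 (66.5), Unc5b (54.4), Ephb4 (47.5) and Nrp1 (41.2). In PT they were Plxnb2 (61.3), Ephb4 (55.5), Ntn1 (42.2), Epha2 (41.9), Efna1 (39.0) and Plxnb1 (35.2). Plxnb2 and Ephb4 were on both lists. The other 4 leaders of EL stood in PT at 1.19 (Sema7a), 0.617 (Slit3), 5.65 (Unc5b) and 2.96 (Nrp1) CPM per kb.

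In a list of 46 signalling partners, such as adaptor and actin-binding proteins, 45 were tested, 20 were higher in PT, 18 lower and 7 not past the threshold, with a median log2 fold change of 0.02. Among all genes tested 39.9% were higher and 40.8% lower, so these counts are near the background. The 4 with the smallest p-values were all lower. Crmp1, a collapsin response mediator of semaphorin signalling, went from 41.5 ± 2.05 CPM in EL to 0.451 ± 0.169 in the PT spheres (log2 fold change -6.50, SE 0.12, adjusted p = 2.05e-14). Dpysl3, a relative of Crmp1, went from 144 ± 1.84 CPM in EL to 1.49 ± 0.308 in the PT spheres (log2 fold change -6.58, SE 0.07, adjusted p = 2.8e-16). Mical1 and Mical2 encode enzymes that oxidise actin downstream of plexins. Mical2 went from 432 ± 13.8 CPM in EL to 22.3 ± 1.84 in the PT spheres (log2 fold change -4.27, SE 0.05, adjusted p = 7.26e-16), and Mical1 from 62.0 ± 2.54 CPM in EL to 4.17 ± 0.253 in the PT spheres (log2 fold change -3.89, SE 0.06, adjusted p = 3.65e-15). Large rises occurred in the same list, named after their values were seen. Dpysl5, of the same family as Crmp1 and Dpysl3, went from 4.999 ± 0.965 CPM in EL to 36.9 ± 1.27 in the PT spheres (log2 fold change 2.88, SE 0.09, adjusted p = 6.32e-12), and Chn1, a chimaerin, from 3.42 ± 0.196 CPM in EL to 18.0 ± 0.859 in the PT spheres (log2 fold change 2.39, SE 0.08, adjusted p = 8.21e-12).

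A second list held 27 further receptors, co-receptors and cues. Of these, 25 had a row in every file, Flrt1 and Flrt2 being absent from the table of EL replicate 1, and 22 were tested. In PT 4 were higher, 15 lower and 3 not past the threshold, with a median of -0.42, where 39.9% of all genes tested were higher and 40.8% lower. Gpc1, a heparan sulphate proteoglycan that binds Slits, went from 659 ± 27.8 CPM in EL to 44.6 ± 1.40 in the PT spheres (log2 fold change -3.88, SE 0.04, adjusted p = 2.74e-16). The syndecans Sdc1 and Sdc2 carry heparan sulphate too. Sdc1 went from 781 ± 14.4 CPM in EL to 203 ± 2.20 in the PT spheres (log2 fold change -1.95, SE 0.03, adjusted p = 5.23e-15), and Sdc2 from 393 ± 2.92 CPM in EL to 101 ± 2.52 in the PT spheres (log2 fold change -1.96, SE 0.03, adjusted p = 5.8e-15). Plxdc1, a membrane protein with a plexin-like domain, went from 105 ± 9.08 CPM in EL to 5.82 ± 0.791 in the PT spheres (log2 fold change -4.16, SE 0.08, adjusted p = 6.09e-14). Gpc1, Sdc1, Sdc2 and Plxdc1 had the smallest p-values of the list. The 4 that were higher, named after their values were seen, were L1cam (log2 fold change 1.87), Flrt3 (0.98), Rgma (0.67) and Usp33 (0.27).

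**Figure D4:**
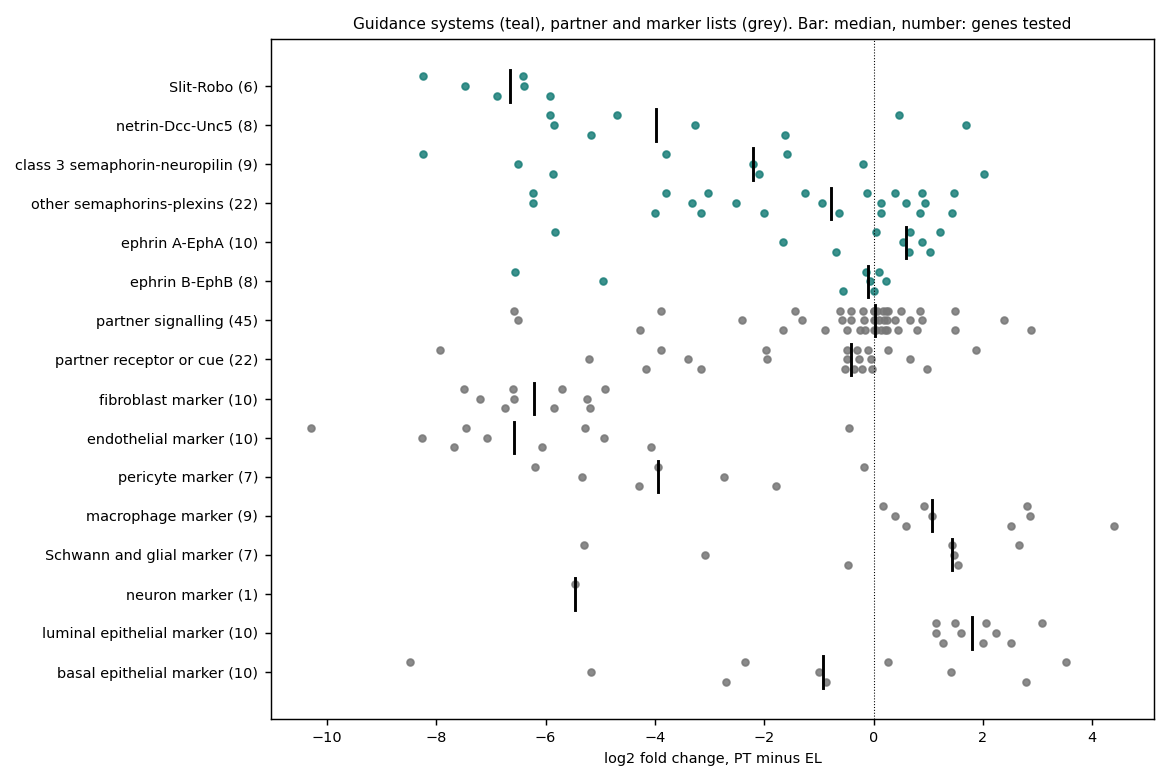
Log2 fold change, PT minus EL, of each tested gene of the 6 guidance systems (teal), of the partner lists and of the cell type marker lists (grey). Black bars are medians and the number of genes tested is in brackets. The Slit and Robo median of -6.65 lies near the medians of the fibroblast (-6.21) and endothelial (-6.58) lists, and the ephrin A and EphA median of 0.59 lies between 0 and the luminal median of 1.80.

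Set beside the marker lists, 10 guidance genes had a log2 fold change below the fibroblast median of -6.21, 4 below the endothelial median of -6.58 and 19 below the pericyte median of -3.95. The lists differ in how many genes they hold, and whether cells of these types carried the guidance transcripts was not tested.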

How the data were processed

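The 6 libraries, 3 EL and 3 PT, were grouped by their titles. Per the submitters' processing notes, STAR, featureCounts and DESeq2 were used with the builds mm10 and hg19. Neither versions nor strandedness is given in the sources used here. Raw whole-number counts per RefSeq transcript were deposited, not normalised by the authors. The row of the highest mean count stood for each symbol, among rows present in all 6 files. Of the guidance genes, 20 have several rows, and in 11 of these the lowest is within 5% of the highest. Exons of 18 overlap another gene, only some of which are marked above, and reads of such pairs cannot be told apart.

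Genes kept by filterByExpr were scaled by TMM factors and tested with edgeR 4.0.16 in R 4.3.3 (quasi-likelihood test, PT against EL, Benjamini-Hochberg adjustment over 13844 genes, threshold 0.05). CPM values are means ± SD over 3 libraries. Levels per kilobase use the GENCODE M21 length matched to the row, or, for Efna5, the longest match of the gene. Promoters come from RefSeq on GRCm38.p6. For Ntn5 and Epha8, with 3 or fewer counts in PT, an exact interval is given.

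The alternatives tried were size factors by RLE or upper quartile, library totals, DESeq2 1.42.0, limma-voom (limma 3.58.1), other count filters, a replicate block, each library left out, summed rows and a 2-fold minimum. Every guidance gene could be named, at most 12 called genes per system being described by their level, and from each partner list the 4 with the smallest p. The members and lists were chosen with earlier results of these data known. The labels give no batch.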

Additional observations from a re-analysis of the deposited data

How the results depend on the processing

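Over 16 alternatives the number of guidance genes past the threshold stayed between 55 and 60, except that a test against a 2-fold minimum called 38, of which 5 were higher in PT, since it asks for a larger change. That test called 7.30% of all genes higher and 17.3% lower. In the other alternatives 26.2% to 57.2% of all genes were higher and 29.3% to 41.4% lower. Guidance genes over 2-fold numbered between 37 and 43 in all 16 alternatives. With each library left out in turn, 57 to 59 guidance genes passed, 18 to 19 higher and 39 to 40 lower. Of all genes, 37.8% to 39.9% were then higher and 39.3% to 40.9% lower. Over the 16 alternatives the sign turned only for 7 guidance genes, all close to 0. With library totals alone it turned for Ephb3 (0.18), Ephb6 (0.11), Plxnb2 (0.13) and Sema3f (0.056), while Efnb2 (0.25), Epha7 (0.29) and Sema4a (0.38) became higher. Efnb2 was at -0.0074 with RLE factors, -0.0025 with DESeq2 and -0.0079 with a filter of 50 counts in 3 libraries. When 1 library was left out, Efnb2 ranged from -0.0195 to 0.0205, Efnb3 from -0.35 to 0.74 and Epha7 from -0.025 to 0.084. With upper-quartile factors Ephb6 (-0.08, adjusted p = 0.159) and Plxnb2 (-0.06, adjusted p = 0.0779) lost their calls, and Sema4a (0.19, adjusted p = 0.0247) gained one. Sema4a gained one without EL replicate 1 too (0.19, adjusted p = 0.0158). Leaving out PT replicate 1 moved Ntn5 to -6.01. The cause was not tested.

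Whether the replicate numbers pair the libraries is not known. Deviations of same-numbered libraries from their group mean correlated at 0.0222, 0.00839 and -0.00216 across genes. Those of differently numbered libraries correlated at -0.0309 to 0.0265, and such values cannot settle the pairing. With the number as a replicate block 59 guidance genes passed, 19 higher and 40 lower, Sema4a (0.14, adjusted p = 0.0425) being the added one. Of all genes, 40.0% were then higher and 40.9% lower. Genes with few counts, such as Robo3, Dcc and 4 EphA receptors, were left out of the main test by its count filter. With DESeq2, or with no filter beyond 1 count, 60 guidance genes passed, 18 higher and 42 lower, against 58 in the main test. Of all genes, 26.2% were higher and 29.3% lower with DESeq2, and 33.9% and 35.8% with no filter beyond 1 count. The guidance genes added in these fits were among those with few counts, and all were lower.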
